A study of Mus musculus with 20 samples.

Results

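The libraries described here are 8 pools of mouse embryos in which the response to small interfering RNA against Pcgf5 (siPcgf5) was compared with a non-targeting control (siControl) over 2 stages at once. They were taken by their labels: 4 siPcgf5 and 4 siControl libraries, with 2 of each at the late 2-cell stage and 2 of each at the morula stage. They make up 8 of the 16 RNA libraries and of the 20 samples in the series. Oocytes of superovulated females were fertilised in vitro, siRNA was delivered by electroporation 3 hours later, and embryos were grown in KSOM medium until 36 hours (late 2-cell) or 72 hours (morula) after insemination. Each library came from 10 pooled embryos, so single embryos cannot be told apart, and siControl embryos went through the same electroporation. The labels give no strain, no genetic change in these embryos and no siRNA sequence. The design text calls the experiments duplicated, without saying that the libraries of a pair came from separate cultures, so the spread within pairs may be technical. Each p-value rests on that spread and on spread borrowed across genes. For the effect shared by the stages it rests also on how far the effect differs between them. The other 8 RNA libraries are WT, Hetero KO and Homo KO embryos of 4 cells, taken at 48 hours, whose labels name a knockout of an MT2C_Mm element at Pcgf5.

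Pcgf5 encodes 1 of the PCGF proteins, the subunits that define the different forms of Polycomb repressive complex 1 (PRC1). PCGF5 and its close relative PCGF3 sit in variant complexes with the ubiquitin ligases RING1 or RNF2 and with RYBP or YAF2, which place ubiquitin on histone H2A at lysine 119 (H2AK119ub1). This mark recruits PRC2, which methylates histone H3, and Polycomb complexes together keep developmental genes silent. In the mouse the late 2-cell stage is the time of the major wave of zygotic genome activation (ZGA), when MERVL retroelements and genes such as Zscan4 are briefly transcribed. Maternal transcripts are cleared around the same time, and by the morula stage the first lineage decisions have begun.

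The labels of the stages fit their markers. The summed level of 6 late 2-cell markers (Zscan4c, Zscan4d, Zscan4f, Zfp352, Usp17lc and Tcstv3) was between 1623 and 3294 CPM (reads per library scaled to a common total, with TMM library sizes) in the late 2-cell libraries and between 4.70 and 37.8 CPM in the morulae. Within each stage the late 2-cell sum was separated by treatment: 1623 and 2022 CPM with siControl against 2476 and 3294 CPM with siPcgf5 in late 2-cell embryos, and 37.8 and 23.6 against 18.9 and 4.70 CPM in morulae, so it lay on opposite sides at the stages. The sum of 6 morula markers (Cdx2, Tfap2c, Krt8, Krt18, Klf5 and Aqp3) was between 50.01 and 57.5 CPM in the late 2-cell libraries and between 334 and 407 CPM in the morulae. Stage made up 94.4% of the variance over 7179 genes with a mean of at least 10 CPM. Depth was 22435872 to 55620137 summed expected counts per library. The siControl late 2-cell replicate 1 stood apart: its blood and immune markers summed to 775 CPM against 339 to 464 CPM in the other late 2-cell libraries. Of that sum, Lyz2 (a macrophage lysozyme) alone held 312 CPM, against at most 3.37 CPM in any other library. In the same replicate 1, Y-linked genes summed to 61.7 CPM against 154 to 233 CPM in the other late 2-cell libraries. The siControl morula replicate 2 held more RNA from X-linked genes: the mean log2 level of 291 X-linked genes lay 0.20 below that of autosomal genes, against 0.51 to 0.56 below in the other morulae.

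Pcgf5 was the only gene that changed with siPcgf5 at an adjusted p under 0.05, and it fell at both stages. In late 2-cell embryos it stood at 310 and 806 CPM with siControl and at 53.5 and 89.7 CPM with siPcgf5. In morulae it stood at 243 and 165 CPM with siControl and at 38.8 and 32.0 CPM with siPcgf5. No siPcgf5 library reached the level of a siControl library of either stage, and the siControl late 2-cell pair was the most spread. Means were 558 ± 351 and 71.6 ± 25.6 CPM at the late 2-cell stage and 204 ± 55.2 and 35.4 ± 4.77 CPM at the morula stage (SD, n = 2 each), so that 12.8% and 17.3% of the control level were left. With stage as a covariate, Pcgf5 fell by 2.75 on the log2 scale (SE 0.307, 95% interval -3.35 to -2.14), a 6.71-fold lower level, with an adjusted p of 0.0408 by edgeR's quasi-likelihood test with Benjamini-Hochberg adjustment. The effect was -2.96 (SE 0.443) at the late 2-cell stage and -2.53 (SE 0.436) at the morula stage. The difference between these, 0.43 (SE 0.583), gave an unadjusted p of 0.476 in the same model and turned to -0.35 without siControl late 2-cell replicate 2. An exact two-sided permutation test within stages gave p = 0.0556, the smallest that 36 relabelings allow.

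The fall of Pcgf5 kept its direction in every fit that left out 1 library, but the call did not hold in all of them. Leaving out 1 library ended it in 5 of 8 cases. The effect and the adjusted p by edgeR's quasi-likelihood test were -2.54 and 0.216 without siPcgf5 late 2-cell replicate 1, and -2.83 and 0.264 without replicate 2 of that group. They were -2.68 and 0.184 without siControl morula replicate 1. They were -2.84 and 0.143 without siPcgf5 morula replicate 1, and -2.73 and 0.183 without its replicate 2. The adjusted p stayed under 0.05 without siControl late 2-cell replicate 1 (-2.89, edgeR adjusted p = 0.0332), without siControl late 2-cell replicate 2 (-2.36, edgeR adjusted p = 0.00492) and without siControl morula replicate 2 (-2.89, edgeR adjusted p = 0.0372).

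Pcgf5 lies on the plus strand of chromosome 19 (GRCm38.p6, 36348329 to 36460970). The RefSeq table holds 3 start windows for it, each with 250 bases before and 50 bases after a start, and they are shown because they differ in their CG dinucleotides, which mark the unmethylated islands where Polycomb complexes are known to sit. CG is in capitals.

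Pcgf5 start at chr19:36348079-36348378: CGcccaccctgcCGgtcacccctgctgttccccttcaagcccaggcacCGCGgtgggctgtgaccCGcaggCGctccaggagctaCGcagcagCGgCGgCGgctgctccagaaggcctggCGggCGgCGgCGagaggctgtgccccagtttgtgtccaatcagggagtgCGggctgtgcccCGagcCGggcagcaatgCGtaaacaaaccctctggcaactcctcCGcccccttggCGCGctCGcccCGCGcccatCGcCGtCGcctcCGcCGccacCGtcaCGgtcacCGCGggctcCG

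Pcgf5 start at chr19:36378817-36379116: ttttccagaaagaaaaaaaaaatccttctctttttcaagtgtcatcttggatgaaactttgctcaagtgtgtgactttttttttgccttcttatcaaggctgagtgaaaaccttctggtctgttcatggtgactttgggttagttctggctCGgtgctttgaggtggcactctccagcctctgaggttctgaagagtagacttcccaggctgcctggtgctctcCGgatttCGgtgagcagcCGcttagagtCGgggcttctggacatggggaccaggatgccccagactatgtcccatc

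Pcgf5 start at chr19:36409498-36409797: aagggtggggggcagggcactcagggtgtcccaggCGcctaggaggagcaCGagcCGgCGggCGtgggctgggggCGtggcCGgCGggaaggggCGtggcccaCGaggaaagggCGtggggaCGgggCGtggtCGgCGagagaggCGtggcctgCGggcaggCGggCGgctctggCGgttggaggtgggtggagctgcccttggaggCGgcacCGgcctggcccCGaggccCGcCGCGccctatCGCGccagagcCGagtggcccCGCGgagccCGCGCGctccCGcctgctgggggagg

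The first window held 34 CG dinucleotides, the second 5 and the third 35, where the median of 32851 such windows of the RefSeq table was 7. At least 34 were found in 7.73% of the windows, at least 5 in 62.0% and at least 35 in 6.95%. Any CG at all was found in 94.6% of windows. CG reads the same on both strands. The counts here are per gene, so the RNA from these starts was not separated.

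**Figure D1:**
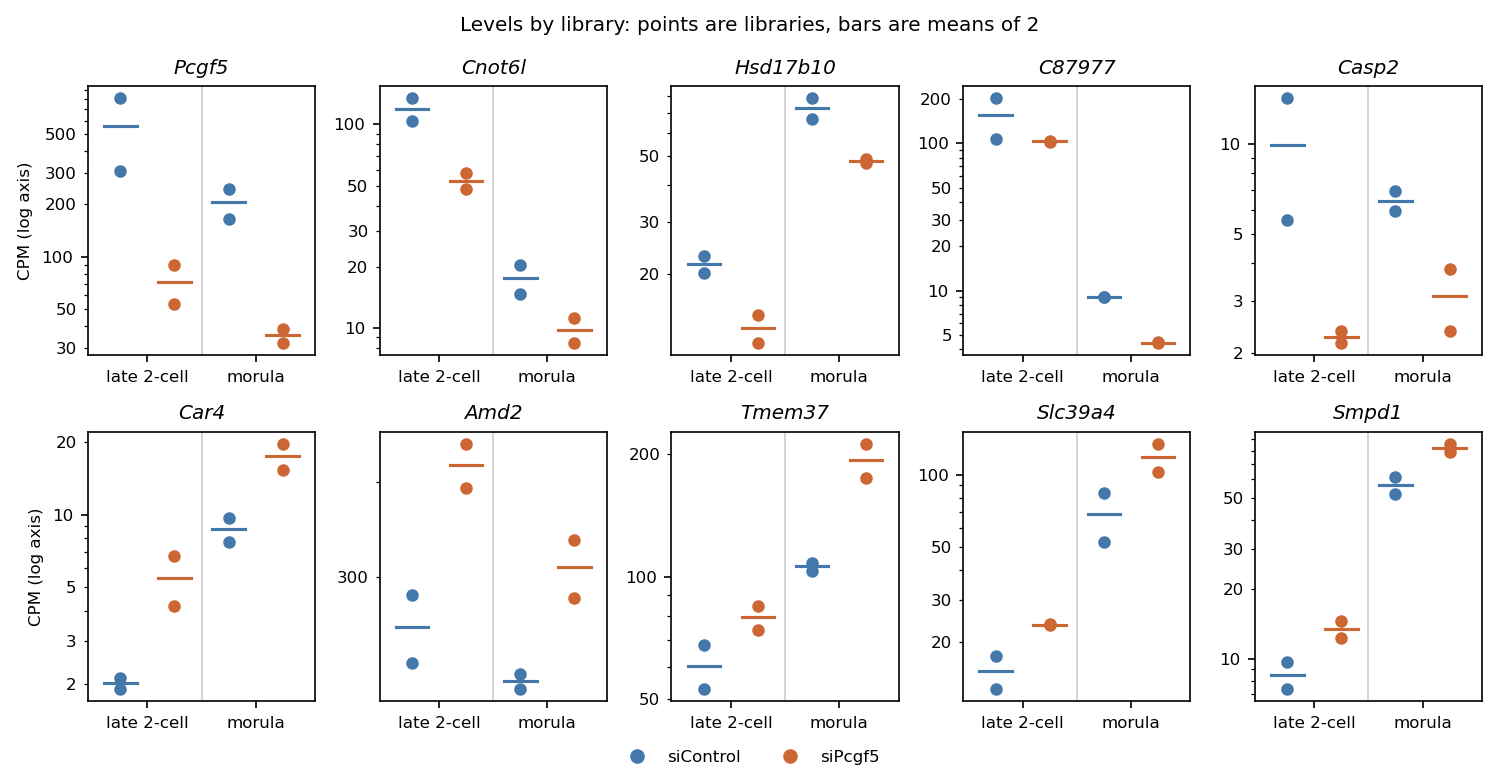
Level of 10 genes in each of the 8 knockdown libraries (CPM on a log axis, TMM-scaled). Points are libraries and bars are means of 2. In every panel siControl and siPcgf5 do not overlap at either stage, which was a condition for choosing all genes but Pcgf5. Pcgf5 fell from 165 to 806 CPM with siControl to 32.0 to 89.7 CPM with siPcgf5.

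Across all genes few differences passed the threshold in the main effect. Of 16980 genes tested by edgeR's quasi-likelihood test with Benjamini-Hochberg adjustment, 0 were called higher (0%) and 1 was called lower (0.00589%), which was Pcgf5. At an unadjusted p under 0.05 there were 219 higher genes (1.29%) and 409 lower genes (2.41%), together 628 (3.70%). That share is below the threshold of 0.05 itself. DESeq2 called 5 genes lower (0.0294%) and 0 higher, and limma on log2(TPM + 1) called 0. The median log2 fold change over all genes was -0.02. The effect of siPcgf5 differed between the stages at an adjusted p under 0.05 by edgeR in 0 genes (0%), and at an unadjusted p under 0.05 in 842 (4.96%). DESeq2 called 18 genes with a higher and 14 with a lower signed log2 fold change at the morula stage than at the late 2-cell stage.

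What the libraries could resolve depended on level. The median standard error of the log2 fold change was 1.33 for 4049 genes under 1 CPM, 0.50 for 5752 genes from 1 to 10 CPM, 0.22 for 5226 genes from 10 to 100 CPM and 0.16 for 1953 genes above 100 CPM. The common coefficient of variation between libraries was 0.469. At levels under 10 CPM only large shared differences could be resolved for a single gene with these libraries.

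**Figure D2:**
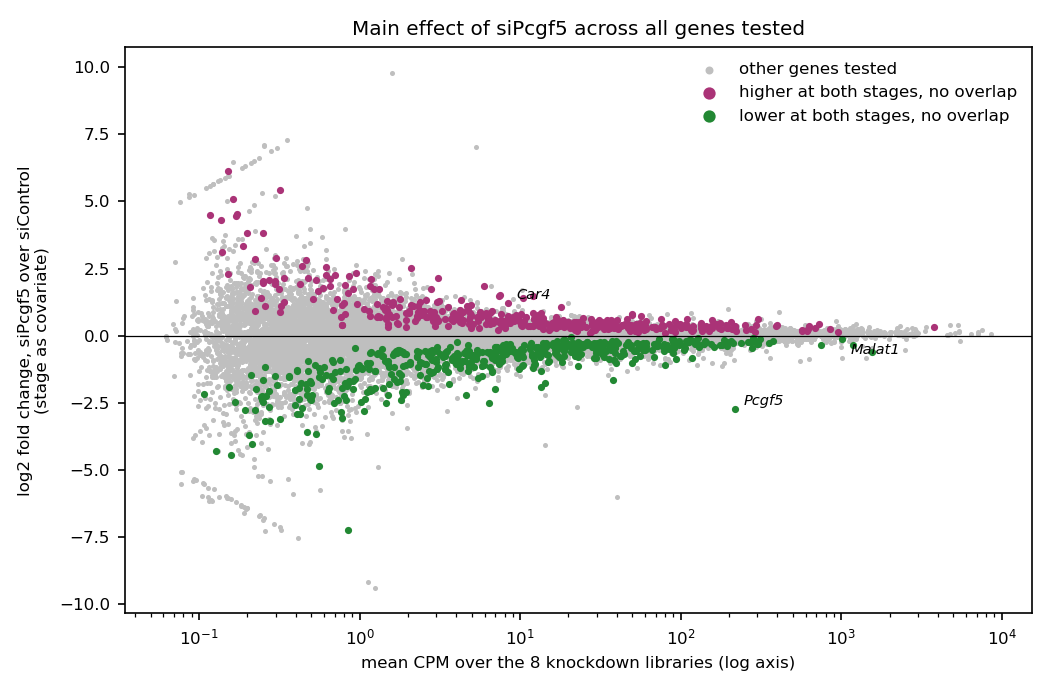
Log2 fold change of siPcgf5 over siControl with stage as covariate, against the mean CPM of the 8 libraries (log axis), for 16980 genes. Pcgf5 at -2.75 stands below genes of its level; coloured points are the 409 genes higher and 509 genes lower at both stages without overlap, and the cloud widens toward low levels.

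A second, looser description used no threshold on p: a gene was counted when both siPcgf5 libraries lay above, or both below, both siControl libraries at the late 2-cell stage and again at the morula stage. There were 409 such higher genes (2.41% of those tested) and 509 lower genes (3.00%). Genes without any effect also meet this condition. A share of 0.0556 of the 36 relabelings within stages puts a gene on the same side at both. The shares of higher and lower genes together were close to that, so the counts alone show no shared response. At 741 genes (4.36%) both stages were without overlap but on opposite sides. The log2 fold change was beyond 1 in size for 84 of the 409 higher genes and 172 of the 509 lower genes. With at least 5 CPM in the higher group at each stage, 216 were higher and 221 lower, and the log2 fold change was beyond 1 in size for 1 of the higher genes (Car4) and 8 of the lower genes. The same-side lower genes had a median transcript length of 3344 bases, the higher genes 2481 and all genes tested 2540. X-linked genes were 27 of 507 located lower genes (5.33%) and 7 of 408 higher genes (1.72%), beside 4.33% of all. The siControl morula replicate 2, which held more X-linked RNA, is a control in that comparison, while siControl morula replicate 1 had the lowest X-linked level of the morulae. In late 2-cell embryos the mean log2 level of X-linked genes lay 0.52 and 0.47 above that of autosomal genes with siControl. With siPcgf5 it lay 0.41 and 0.43 above. The part of these levels in the shares was not tested.

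Among the genes on the lower side, Cnot6l had the smallest p after Pcgf5. It encodes a deadenylase of the CCR4-NOT complex that helps to remove maternal mRNA, and lies on chromosome 5 (96070333 to 96164198). It stood at 134 and 104 CPM with siControl and 58.0 and 48.1 CPM with siPcgf5 at the late 2-cell stage, and at 14.7 and 20.5 against 11.2 and 8.44 CPM at the morula stage. The levels with siPcgf5 were about equally far below siControl at both stages, at log2 fold changes of -1.17 and -0.84. The shared log2 fold change was -1.01 (SE 0.190, unadjusted p = 0.000203 in the edgeR model), which did not pass the adjusted threshold in edgeR and passed in DESeq2 (adjusted p = 0.0131).

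Hsd17b10, a mitochondrial dehydrogenase that is also part of mitochondrial RNase P, lies on the X chromosome (152001896 to 152004442). It stood at 20.2 and 23.0 CPM with siControl against 11.7 and 14.5 CPM with siPcgf5 in late 2-cell embryos, and at 66.9 and 78.4 against 47.5 and 48.8 CPM in morulae, a log2 fold change of -0.66 (SE 0.163). Its stage effects, -0.72 and -0.59, were close, although its level was higher in all morulae than in all late 2-cell libraries. Casp2, the gene of the protease caspase-2 (chromosome 6, 42264902 to 42282508), stood at 14.2 and 5.56 CPM against 2.38 and 2.17 CPM, and at 6.95 and 5.97 against 2.38 and 3.82 CPM, a log2 fold change of -1.59 (SE 0.406). C87977, a member of the PRAME-like family on chromosome 4 (144206762 to 144213017), stood at 202 and 108 against 104 and 103 CPM, and at 9.02 and 9.08 against 4.41 and 4.47 CPM. Its log2 fold change was -0.80 (SE 0.203); the late 2-cell groups barely cleared each other, and since the family has near-identical copies, its counts are uncertain.

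The remaining DESeq2 calls, named after their values were seen, were Gphn, Cdh12 and C1qc. Gphn, the scaffold protein gephyrin (chromosome 12, 78217325 to 78684772), stood at 34.7 and 29.9 CPM with siControl and 12.3 and 15.0 CPM with siPcgf5 in late 2-cell embryos, and at 1.71 and 1.68 against 0.773 and 0.768 CPM in morulae. The pairs of Gphn were tight and apart at both stages, with log2 fold changes of -1.24 and -1.13. Cdh12, a cadherin, stood at 5.64 and 0.970 CPM in the siControl late 2-cell pair and at most at 0.153 CPM elsewhere. C1qc, a complement gene of macrophages, stood at 9.32 CPM in siControl late 2-cell replicate 1, the library with the high Lyz2, at 0.610 CPM in siControl morula replicate 2 and at 0 in the other 6 libraries. Its call therefore rests on 2 control libraries, and with all siPcgf5 libraries at 0 no fold is given.

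Among the genes on the higher side with at least 5 CPM in the higher group at each stage, Car4 had the smallest p. It passed that level in late 2-cell embryos through siPcgf5 alone (mean 5.47 CPM against 2.01 CPM with siControl). Car4 encodes a membrane-bound carbonic anhydrase and lies on chromosome 11 (84957754 to 84966054). It stood at 2.11 and 1.90 CPM with siControl and 4.18 and 6.75 CPM with siPcgf5 at the late 2-cell stage, and at 7.72 and 9.69 against 19.6 and 15.4 CPM at the morula stage. The level with siPcgf5 was more than the control's at both stages, with log2 fold changes of 1.44 and 1.00 and a shared value of 1.22 (SE 0.282). The unadjusted p was 0.00106 in the edgeR model and the gene did not pass the adjusted threshold.

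Amd2 encodes S-adenosylmethionine decarboxylase, an enzyme of polyamine synthesis (chromosome 10, 35708691 to 35711891), and resembles Amd1 so closely that its counts are uncertain. It stood at 232 and 284 CPM with siControl and 393 and 449 CPM with siPcgf5 in late 2-cell embryos, and at 224 and 214 against 336 and 282 CPM in morulae, a log2 fold change of 0.60 (SE 0.142). Tmem37, a membrane protein related to calcium channel subunits (chromosome 1, 120067377 to 120074069), stood at 67.8 and 53.02 against 84.9 and 73.9 CPM, and at 108 and 104 against 211 and 175 CPM, a log2 fold change of 0.63 (SE 0.162). In Tmem37 the morula difference was the wider one (0.87 against 0.39), and the difference between the stages was not called. Slc39a4, the zinc importer ZIP4 (chromosome 15, 76612383 to 76618506), stood at 12.7 and 17.4 against 23.5 and 23.6 CPM, and at 84.0 and 52.4 against 134 and 102 CPM, a log2 fold change of 0.72 (SE 0.193). Smpd1, the acid sphingomyelinase of lysosomes (chromosome 7, 105554360 to 105558389), stood at 7.39 and 9.63 against 14.5 and 12.3 CPM, and at 61.6 and 52.1 against 85.3 and 79.0 CPM, a log2 fold change of 0.60 (SE 0.168). All 5 higher genes were separated at both stages in all 8 libraries, which was a condition for naming them.

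No partner of PCGF5 was called. Of 40 genes of PRC1 subunits, all tested, Pcgf5 was called lower and 0 were called higher; 18 had a positive log2 fold change, and the median was -0.04 beside -0.02 for all genes. Of the ubiquitin ligases, Rnf2 differed by 0.03 (SE 0.153) on the log2 scale at a mean of 233 CPM, and Ring1 by -0.08 (SE 0.756) at only 1.53 CPM. Rybp differed by 0.00 (SE 0.135) and its relative Yaf2 by -0.13 (SE 0.196). Pcgf3, the nearest relative of Pcgf5, differed by 0.25 (SE 0.195), with 0.09 at the late 2-cell stage and 0.41 at the morula stage. Auts2, an activating partner in PCGF5 complexes, differed by -0.10 (SE 0.350), and the casein kinase subunit Csnk2a1 by -0.09 (SE 0.158).

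The other PCGF genes varied without a call. Pcgf1 differed by 0.30 (SE 0.213), Bmi1 (the PCGF4 of canonical PRC1) by -0.13 (SE 0.155) and Pcgf6 by -0.05 (SE 0.183). Pcgf2 was close to absent at a mean of 0.502 CPM and lay lower with siPcgf5 at both stages, between 0 and 0.516 CPM against 0.485 to 1.05 CPM with siControl. Max and Mga are partners of PCGF6. Max had the smallest p of the list after Pcgf5, and stood at 52.5 and 38.5 CPM with siControl against 25.1 and 32.3 CPM with siPcgf5 in late 2-cell embryos, and at 22.4 and 27.9 against 17.9 and 20.3 CPM in morulae, a log2 fold change of -0.53 (SE 0.191) that was not called. Mga overlapped at the late 2-cell stage and differed by -0.30 (SE 0.175).

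For PRC2, which H2AK119ub1 recruits, 0 of 11 tested genes were called in either direction, and the median log2 fold change was -0.02. The catalytic subunit Ezh2 differed by 0.07 (SE 0.146), Eed by -0.07 (SE 0.143) and Suz12 by -0.07 (SE 0.143). Jarid2, a subunit that binds H2AK119ub1, differed by 0.11 (SE 0.135). Ezh1 was the 1 member of 11 higher at both stages without overlap (beside 2.41% of all genes), at 18.1 and 17.8 against 21.7 and 21.7 CPM and at 6.29 and 5.82 against 10.2 and 6.30 CPM. For the enzymes that remove the mark and their partners, 0 of 16 were called, with a median of -0.01; Usp16 differed by -0.01 (SE 0.139) and Bap1 by -0.02 (SE 0.216). Mbd6, a partner of BAP1, was the 1 member of 16 higher at both stages (6.25%, beside 2.41% of all genes). It stood at 1.504 and 1.12 against 1.93 and 2.97 CPM and at 2.30 and 2.42 against 2.74 and 2.64 CPM. Asxl3, a partner of BAP1, stood at 6.11 and 5.49 against 2.19 and 1.69 CPM in late 2-cell embryos, while the morula libraries overlapped at 0.0322 to 0.559 CPM.

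Developmental genes that Polycomb complexes silence in many cells had no call. Of 115 listed, 90 were tested and 0 were called. There were 33 with a positive log2 fold change (36.7%, beside 47.5% of all genes). The median was -0.31 for the main effect, with -0.28 at the late 2-cell stage and -0.11 at the morula stage. The list was barely expressed, with a median level of 0.849 CPM, where the median over 4049 genes under 1 CPM was -0.17. Its summed level was 428 to 536 CPM with siPcgf5 and 486 to 750 CPM with siControl at the late 2-cell stage, and 440 to 491 against 418 to 456 CPM at the morula stage. The highest of these sums belonged to siControl late 2-cell replicate 1, and without that library the median was -0.15. It was -0.43 without siControl late 2-cell replicate 2 and -0.07 in limma on log2(TPM + 1). The homeobox genes Irx2 and Mixl1 lay higher at both stages (2.22% of the list, beside 2.41% of all genes) and the signal gene Shh lower (1.11%, beside 3.00%), so these shares were near or below those of all genes. Irx2 stood at 1.01 and 0.709 against 5.67 and 1.29 CPM and at 0.153 and 0.153 against 0.515 and 0.316 CPM. Hoxa2 was counted in the siControl late 2-cell pair alone, at 0.584 and 1.46 CPM.

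ZGA genes, which the series title ties to Pcgf5, showed no shared call. Of 59 listed 2-cell ZGA genes 52 were tested, 0 were called in either direction, and 0 lay on the same side at both stages without overlap (beside 2.41% and 3.00% of all genes). The median was 0.10, made of 0.23 at the late 2-cell stage and -0.10 at the morula stage, and it was 0.01 without siControl late 2-cell replicate 1. Zscan4d, of a family that marks the 2-cell state, stood at 229 and 336 CPM with siControl and 493 and 508 CPM with siPcgf5 in late 2-cell embryos. In morulae Zscan4d overlapped and was near absent, at 0.179 and 0.330 against 1.13 and 0.293 CPM. Its log2 fold change was 0.98 (SE 0.315), with 0.82 (SE 0.381) and 1.39 (SE 0.601) at the stages, and its near-identical relatives make its counts uncertain. Hsf2bp went the other way, at -1.03 (SE 0.431) on the log2 scale and with overlap at the late 2-cell stage. Of 6 tested Obox genes, oocyte homeobox factors that act in ZGA, 0 were called. Obox2 differed by -1.03 (SE 0.378) and Obox6 by 0.26 (SE 0.187), and as relatives with similar sequence both are uncertain.

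**Figure D3:**
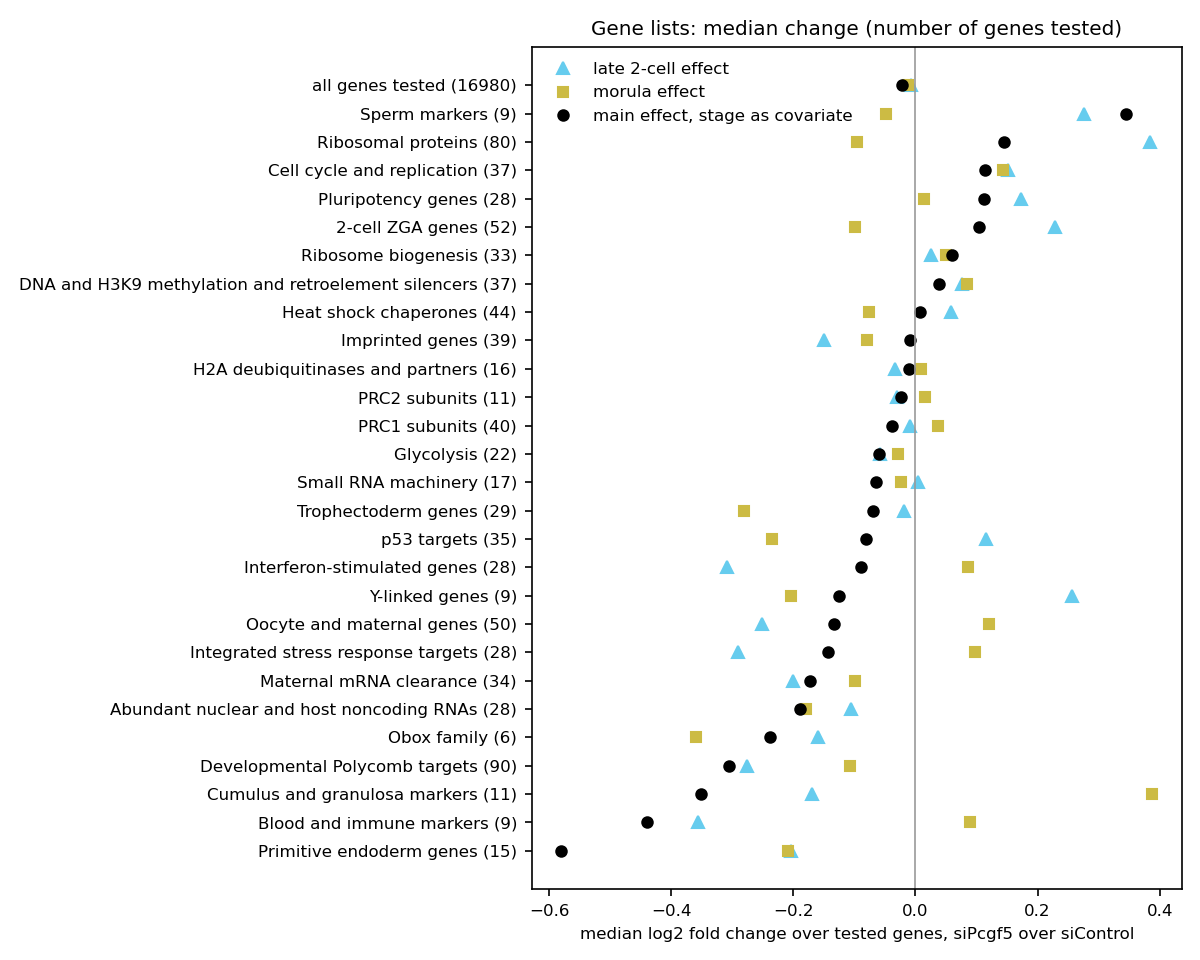
Median log2 fold change of siPcgf5 over siControl for each gene list, with the main effect as a circle, the late 2-cell effect as a triangle and the morula effect as a square; numbers in brackets are genes tested. The ribosomal proteins and the 2-cell ZGA genes are among the lists with medians of opposite sign at the stages, while the 16980 genes in all sit at -0.02.

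Genes for clearing maternal mRNA held more same-side lower members than the genes in all, as a count. Of 34 tested, 5 were lower at both stages without overlap (14.7%, beside 3.00% of all genes), 0 were higher, and 0 were called by edgeR. They were Cnot6l, given above, and Cnot6, Cnot2, Ythdf3 and Zcchc11. Cnot6, the paralog of Cnot6l with the same deadenylase role, stood at 97.7 and 98.1 CPM with siControl against 67.5 and 84.3 CPM with siPcgf5 in late 2-cell embryos, and at 58.4 and 59.0 against 39.5 and 51.5 CPM in morulae. Its log2 fold change was -0.37 at both stages. Cnot2, a scaffold of the same complex, stood at 233 and 219 against 178 and 214 CPM and at 215 and 213 against 188 and 189 CPM. Ythdf3, a reader of N6-methyladenosine, differed by -0.36 (SE 0.149) and Zcchc11, a terminal uridyltransferase, by -0.29 (SE 0.165). The median of the list was -0.17, with -0.20 and -0.10 at the stages. Leaving out 1 library gave -0.20 to -0.08, the latter without siControl late 2-cell replicate 1. The summed level of the list was highest in that library, at 4697 CPM against 3059 to 3380 CPM in the other late 2-cell libraries, and its part in the result was not tested.

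The maternal transcripts themselves had medians of opposite sign at the stages. Of 50 oocyte and maternal genes 0 were called, and the median was -0.13, with -0.25 in late 2-cell embryos and 0.12 in morulae; leaving out siControl late 2-cell replicate 1 turned it to 0.11. On the same side at both stages were 1 higher member, Trim28, given below, and 1 lower member, Figla, each 2.00% of the list (beside 2.41% and 3.00% of all genes). Figla, a transcription factor of oocytes, stood at 6.22 and 6.04 against 2.06 and 1.44 CPM and at 1.41 and 2.29 against 0.967 and 1.17 CPM. Nlrp14, a maternal gene of the oocyte cytoplasm, stood at 498 and 396 against 290 and 352 CPM in late 2-cell embryos and overlapped in morulae.

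Lineage genes had few shared differences. Of 28 pluripotency genes 0 were called and 18 had a positive value (64.3%, beside 47.5% of all genes), with a median of 0.11. Esrrb, a nuclear receptor of the pluripotency network, was the 1 same-side member, on the higher side (3.57%, beside 2.41% of all genes). It stood at 3.14 and 3.36 against 5.16 and 4.99 CPM and at 21.9 and 17.5 against 33.1 and 21.9 CPM, a shared difference of 0.56 on the log2 scale (SE 0.226). In morulae the lower siPcgf5 library of Esrrb was all but level with the higher siControl library. Of 29 trophectoderm genes 0 were called, with a median of -0.07, and with -0.02 at the late 2-cell stage and -0.28 at the morula stage. Rhox6 was the 1 same-side member, on the lower side (3.45%, beside 3.00% of all genes). It differed by -1.96 (SE 0.832) and reached at most 4.40 CPM. Of 15 tested primitive endoderm genes 0 were called and 4 had a positive value (26.7%, beside 47.5% of all genes). Their median was -0.58 for the main effect, but only -0.20 at the late 2-cell stage and -0.21 at the morula stage. It was between -0.54 and -0.25 with 1 library left out and -0.07 in limma, and the median level of the list was 4.62 CPM. The value nearest 0 among these fits with a library left out came without siControl late 2-cell replicate 2. Lamb1, a laminin chain of the basement membrane, stood at 22.1 and 21.0 against 10.7 and 18.2 CPM and at 12.9 and 11.2 against 7.73 and 8.11 CPM. Of 39 imprinted genes 0 were called and 2 lay on each side (5.13% each way, beside 2.41% higher and 3.00% lower over all genes): Igf2r and the barely detected Igf2 were higher, and the noncoding Meg3 and Rian, which belong to 1 imprinted cluster, were lower.

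Silencers of retroelements had a few same-side higher members. Of 37 genes for DNA methylation, H3K9 methylation and retroelement silencing, 0 were called, 3 were higher at both stages without overlap (8.11%, beside 2.41% of all genes) and 0 lower. Trim28, the corepressor of KRAB zinc finger proteins, stood at 28.7 and 34.2 against 38.1 and 44.9 CPM and at 252 and 197 against 270 and 259 CPM, a log2 fold change of 0.32 (SE 0.146). Morc3 differed by 0.14 (SE 0.137) and Pias4 by 0.70 (SE 0.414). For Pias4 this was 1.38 at the late 2-cell stage, at 0.522 to 3.93 CPM, and only 0.08 at the morula stage. The median of the list was 0.04. Cbx1, a heterochromatin protein, had the smallest p of the list at -0.64 (SE 0.261), and its libraries overlapped at the late 2-cell stage.

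Lists for responses to delivery of siRNA or to stress had no call. Of 28 tested interferon-stimulated genes 0 were called, with a median of -0.09, made of -0.31 at the late 2-cell stage and 0.09 at the morula stage. Ifitm2, an antiviral membrane protein, lay lower at both stages (3.57% of the list, beside 3.00% of all genes). It stood at 15.9 and 14.1 against 2.38 and 9.65 CPM and at 146 and 242 against 84.4 and 127 CPM, a log2 fold change of -1.08 (SE 0.359). Of 17 small RNA genes 0 were called. Argonaute 4 (Ago4) was the 1 same-side member, on the lower side (5.88%, beside 3.00% of all genes), with a log2 fold change of -0.84 (SE 0.367). Of 35 p53 targets and 28 integrated stress response targets 0 were called, with medians of -0.08 and -0.14. Both had medians of opposite sign at the stages. For p53 targets they were 0.12 at the late 2-cell stage and -0.24 at the morula stage, and for stress response targets -0.29 and 0.10. Without siControl late 2-cell replicate 1 the medians of the interferon-stimulated, integrated stress response and trophectoderm lists turned to 0.10, 0.09 and 0.05. Rrm2b, a p53-induced ribonucleotide reductase subunit, stood at 143 and 94.8 against 93.8 and 84.8 CPM and at 4.88 and 5.52 against 3.67 and 3.75 CPM. Of 44 chaperones 0 were called. Dnajb1 was higher at both stages (2.27% of the list, beside 2.41% of all genes), with a log2 fold change of 0.61 (SE 0.194). That value was made of 1.08 at the late 2-cell stage and 0.15 at the morula stage. Dnajb4 (-0.86, SE 0.251), Hsp90b1 (-0.38, SE 0.136) and Cct2 (-0.23, SE 0.132) were lower at both stages (6.82%, beside 3.00% of all genes).

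Growth genes had no call. Of 37 genes of the cell cycle and replication 0 were called. A positive value was found for 27 (73.0%), beside 47.5% of all genes and 51.2% of those with a mean of at least 10 CPM. At both stages 17 were positive, beside 3744 of all 16980 genes. The medians were 0.11 for the main effect, 0.15 at the late 2-cell stage and 0.14 at the morula stage. Mcm3, a subunit of the replicative helicase, stood at 8.51 and 8.99 against 11.8 and 13.2 CPM and at 41.3 and 36.3 against 52.3 and 51.6 CPM, a log2 fold change of 0.47 (SE 0.166). Of 80 ribosomal protein genes 0 were called, 75 had a positive main effect and 10 were positive at both stages. Their median was 0.14, with 0.38 in late 2-cell embryos and -0.10 in morulae. Their summed level in late 2-cell embryos was 14065 and 20474 CPM with siControl and 23894 and 21887 CPM with siPcgf5, and leaving out siControl late 2-cell replicate 1 brought the median to 0.03. Of 33 ribosome biogenesis genes and 22 glycolysis genes 0 were called, with medians of 0.06 and -0.06. Leaving out siControl late 2-cell replicate 1 brought the first to 0.01, and leaving out the other library of that pair brought the first to 0.20 and the second to 0.02. Malat1, an abundant nuclear noncoding RNA, had a main effect of -0.84 (SE 0.254), with -1.54 and -0.15 at the stages. It stood at 322 and 278 against 105 and 101 CPM in late 2-cell embryos and overlapped in morulae, at 1701 and 2119 against 1699 and 1743 CPM.

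Markers of cells that could travel with embryos were mostly low. Of the defining markers of cumulus and granulosa cells, Foxl2 was at most 0.112 CPM, Ptx3 at most 0.299 CPM and Fshr at most 0.588 CPM, while Has2 reached 1.48 CPM and Cyp19a1 2.20 CPM, both in siControl late 2-cell replicate 1. Tnfaip6, a matrix protein of expanding cumulus, was the 1 same-side higher member of 11 tested (9.09%, beside 2.41% of all genes). It stood at 16.998 and 20.4 CPM with siControl against 36.9 and 21.2 CPM with siPcgf5 in late 2-cell embryos. In morulae it stood at 0 and 0 against 0.0644 and 0.0452 CPM. The cumulus and granulosa list summed to 46.8 and 52.3 CPM with siControl and 62.5 and 55.7 CPM with siPcgf5 in late 2-cell embryos and to 10.7 and 10.7 against 14.9 and 11.6 CPM in morulae. This sum lay higher with siPcgf5 at both stages, but Tnfaip6 alone held 36.9 of the 62.5 CPM in siPcgf5 late 2-cell replicate 1. Of the 11 tested members 7 had a negative log2 fold change, and the median of the list was -0.35. The sperm list summed to 104 and 114 against 131 and 141 CPM in late 2-cell embryos and overlapped at 30.4 to 39.2 CPM in morulae. The leukocyte marker Ptprc was at 1.91 CPM in siControl late 2-cell replicate 1 and at 0 in the other 7 libraries, and the erythroid Alas2 was at most 0.0317 CPM. Hba-a2, an alpha globin gene with a near-identical copy, was nonetheless counted at 244 and 245 against 322 and 348 CPM in late 2-cell embryos and at 19.1 and 16.4 against 38.2 and 21.4 CPM in morulae. Of 11 cumulus, 9 sperm and 9 blood genes tested, 0 were called. The part of these markers in the differences above was not tested.

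The 4-cell libraries share no library with the knockdown and were used to look at the same-side genes in another setting. Pcgf5 itself stood at 331 and 297 CPM in WT, at 338, 255 and 286 CPM in Hetero KO and at 193, 214 and 164 CPM in Homo KO. The Homo KO libraries lay below all others, with a log2 fold change of -0.72 against WT (SE 0.185, edgeR adjusted p = 0.236), a much smaller difference than in the knockdown. Homo KO against WT called 0 of 13766 genes (0%) by edgeR's quasi-likelihood test, with 1701 (12.4%) at an unadjusted p under 0.05.

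Same-side genes of the knockdown tended to lie on the opposite side in Homo KO embryos. Of 366 same-side higher genes tested in both, 249 (68.0%) had a negative log2 fold change of Homo KO over WT, with a median of -0.28. Of 436 same-side lower genes, 265 (60.8%) had a positive one, with a median of 0.22. Over 13616 genes tested in both, 50.8% were positive and the median was 0.01. These shares are a description over genes that are not independent of each other, with no test, and leaving out 1 library of WT or Homo KO gave 62.0% to 69.7% for the first and 54.6% to 62.4% for the second. With the same WT libraries, Hetero KO had 65.3% and 61.2%, although its Pcgf5 level overlapped WT. Homo KO against Hetero KO, without the WT libraries, had 59.3% negative among the higher genes and 50.5% positive among the lower genes.

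Single genes varied. Cnot6l stood at 34.2 and 17.2 CPM in WT, at 107, 52.1 and 28.7 CPM in Hetero KO and at 19.96, 37.2 and 119 CPM in Homo KO, a log2 fold change of 1.19 (SE 0.849) with overlapping groups. C87977 stood at 8.28 and 12.1 CPM in WT and 20.3 to 27.5 CPM in Homo KO, without overlap, at 1.16 (SE 0.390), and at 21.7 to 50.1 CPM in Hetero KO. Car4 stood at 3.95 and 6.89 CPM in WT and at 1.34, 1.57 and 3.01 CPM in Homo KO, a log2 fold change of -1.45 (SE 0.612). Slc39a4 differed by -1.04 (SE 0.497) and Smpd1 by -0.58 (SE 0.414), while Amd2 differed by 0.05 (SE 0.407), Tmem37 by -0.18 (SE 0.510), Hsd17b10 by 0.14 (SE 0.432) and Casp2 by -0.20 (SE 0.422). None of these 9 genes was called by edgeR.

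**Figure D4:**
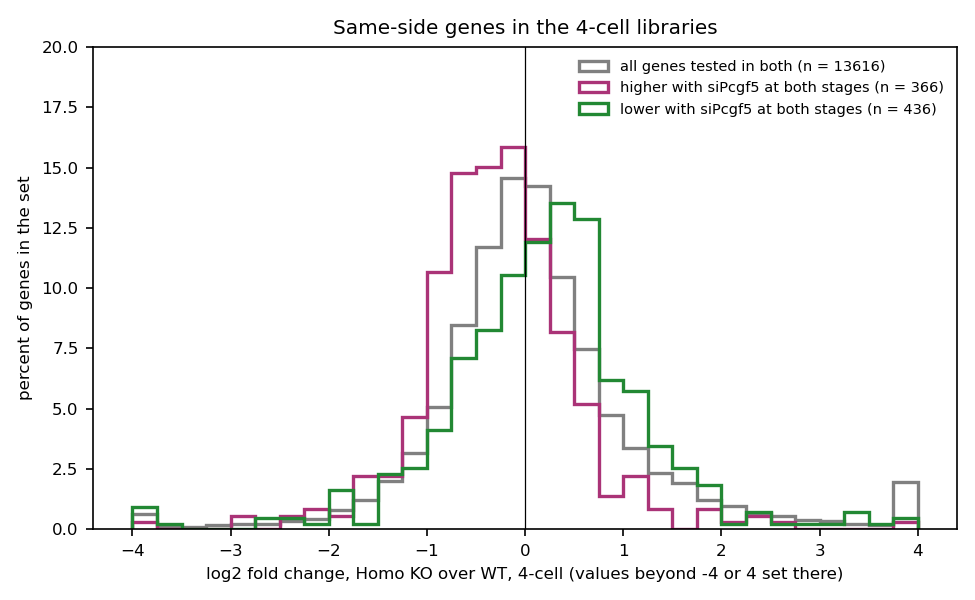
Distribution of the log2 fold change of Homo KO over WT at the 4-cell stage, as percent of genes in each set, for 13616 genes tested in both experiments, 366 genes higher and 436 genes lower with siPcgf5 at both stages. The higher set is shifted to negative values (median -0.28) and the lower set to positive values (median 0.22).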

How the data were processed

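Libraries of polyadenylated RNA were made with the SMART-Seq v4 PLUS kit (labels' protocols). Each deposited file holds expected counts from RSEM, not normalised by the authors, and TPM scaled by RSEM, as given per the file headers. The deposited transcript length per gene is another RSEM value, per the file headers. The submitters' processing notes name deepTools, Bowtie2 2.4.5, STAR 2.7.10, RSEM 1.3.3 and the build mm10, and give no roles. Positions and start windows come from RefSeq tables of GRCm38.p6.

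Expected counts of the 8 knockdown libraries were rounded, kept by filterByExpr (minimum count 10, 16980 of 24411 genes), scaled by TMM and fitted in edgeR 4.0.16 (R 4.3.3; robust quasi-likelihood, trended dispersion) with treatment and stage. Tests are two-sided, and a call is a Benjamini-Hochberg adjusted p under 0.05. The stage difference used 4 group coefficients. The 4-cell libraries were fitted apart. The fit was tested on simulated data. Intervals and counts of 0 cover counting error and the spread of these libraries only, since amplified reads without molecular identifiers are not independent molecules.

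Named genes are Pcgf5, the 5 smallest p in each direction among same-side genes with at least 5 CPM in the higher group at each stage (predicted genes left out), and the smallest-p members of each of 27 lists. Same-side list members and Polycomb subunits outside this rule were named with their values known. The members and lists were chosen with earlier results of these data known. Alternatives were DESeq2 size factors, no filter, DESeq2 1.42.0, limma 3.58.1 on log2(TPM + 1), the mean of both stage effects, the replicate number as a block, each library left out, and a mean of at least 10 CPM, the last chosen after seeing the data. Same-numbered libraries deviated with correlations of -0.05 (late 2-cell) and 0.01 (morula), so numbers were not taken as pairs. The chi-square per gene between libraries of a pair was 42.7 to 165, so none was a duplicate. The labels give 1 batch for all. The 4 H2AK119ub1 libraries were not analysed here.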

Additional observations from a re-analysis of the deposited data

How the results depend on the processing

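The direction of Pcgf5 was the same under each alternative run; the call was not. The log2 fold change and adjusted p were -2.74 and 0.0547 with DESeq2 size factors in edgeR, -2.75 and 0.276 without a filter, -2.68 and 0.0946 in limma, -2.75 and 0.0574 as the mean of both stage effects in edgeR, -2.74 and 0.0814 with a replicate block in edgeR, and -2.76 and 0.0658 at a mean of at least 10 CPM in edgeR (chosen after seeing the data). Under these 6 alternatives 0 genes were called lower, and 0 on the same side at both stages. DESeq2 called 5 lower, 4 of them on the same side. Across the fits that leave out 1 library, Pcgf5 ranged from -2.89 to -2.36, with 0 to 2 genes called lower and 0 to 2 on the same side. The second gene was Lyz2, without siControl late 2-cell replicate 2. A replicate block within each stage kept 1 call. Because the libraries share only a number, the block says nothing of a weaker effect.

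Leaving out 1 library gave 707 to 1093 same-side higher and 778 to 1117 lower genes, since fewer libraries need to be apart, and the added level minimum gave 182 and 261. Without the filter, stage differences were called for 12 genes with a higher signed log2 fold change at the morula stage and 21 with a lower one. DESeq2 called 18 and 14. On the lower side limma called 1, and leaving out a library gave 0 to 1. With 1 library left out the Pcgf5 stage difference ran from -0.35 to 0.95 and the Y-linked Ddx3y from -0.69 to 0.090, with the sign reversed in both without siControl late 2-cell replicate 2. Pcgf5 in Homo KO against WT passed in DESeq2 (-0.71, adjusted p = 0.0408). The main effect of Pcgf5, counted apart, lost its call in 11 refits. Values of the other named genes, none of them called in the main fit, kept their direction and their side of the threshold in 1029 refits. They passed the threshold in 5 and reversed in 1. List medians moved by less than their spread in 331 refits and by more in 89. The cause of these moves was not tested.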
